A study of Mus musculus with 30 samples.

Results

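The mitochondrial respiratory chain genes were followed through 4 days of mouse embryonic stem (ES) cell differentiation and between 2 genotypes. They were taken by name: every gene present in both deposited expression tables whose symbol starts with Ndufa, Ndufb, Ndufc, Ndufs, Ndufv, Sdha to Sdhd, Uqcr, Cox4 to Cox8 or Atp5, without the Ndufaf assembly factors. This gave 88 of 23284 genes, of which 38 belong by name to complex I, 4 to complex II, 8 to complex III, 18 to complex IV and 15 to complex V. The other 5 share a prefix and are not subunits: Sdhaf1 and Sdhaf2 are assembly factors of complex II, Cox4nb (now Emc8) belongs to a membrane protein insertion complex of the endoplasmic reticulum, and Atp5s and Atp5sl are now named Dmac2l and Dmac2. Ndufa4, which is now usually placed in complex IV, and its paralog Ndufa4l2 are counted with complex I here because the grouping follows the names.

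RNA was sequenced from 14 libraries, 2 per group. Of these, 10 came from wild-type E14Tg2a.IV cells of the 129/Ola background, as ES cells (day 0) and as embryoid bodies (EBs, floating aggregates in which ES cells differentiate) on days 1, 2, 3 and 4. The other 4 came from day 4 EBs of C57BL/6J ES lines, 2 from a wild-type Trp53+/+ line and 2 from cells that carry Trp53-/- with hairpins directed at p63 and p73 (Trp53-/-,p63shp73sh), a design aimed at all members of the p53 transcription factor family. Per the labels' protocols, E14 cells were kept in serum with LIF and the Trp53 lines in serum-free N2B27 medium with LIF and the 2i inhibitors, and no control hairpin is named for the Trp53+/+ line, so background, medium and line differ between the time course and the genotype table. Whether paired libraries came from separate cultures is not stated, and the p-values measure only the spread between these libraries, which may be technical.

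The respiratory chain passes electrons from NADH (complex I) and succinate (complex II) through ubiquinone to complex III, through cytochrome c to complex IV, and from there to oxygen. Complexes I, III and IV pump protons across the inner mitochondrial membrane, and complex V, the ATP synthase, uses the gradient to make ATP. Most subunits are encoded in the nucleus, by the genes described here. A few core ones are encoded in mitochondrial DNA, and none of these was found by symbol in the deposited data. Several subunits of complexes IV and V have alternative genes that are used in particular tissues or at low oxygen, and ES cells leaving pluripotency are known to change how far they rely on respiration.

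The upstream sequence of 4 genes is printed because their values carry the results below: Ndufa11 and Uqcr11, which fell during differentiation and hold one of the motifs searched, Atp5g1, which had the smallest p in the time course, and Cox6b2, which fell in the p53 family loss. Each run is the 250 bases before the transcription start in RefSeq (GRCm38.p6), written 5′ to 3′ on the gene's own strand, and capitals mark a match to a motif. The windows are chr17:56717512-56717761 (plus strand) for Ndufa11, chr10:80406822-80407071 (minus) for Uqcr11, chr11:96075632-96075881 (minus) for Atp5g1 and chr7:4753095-4753344 (minus) for Cox6b2.
Ndufa11: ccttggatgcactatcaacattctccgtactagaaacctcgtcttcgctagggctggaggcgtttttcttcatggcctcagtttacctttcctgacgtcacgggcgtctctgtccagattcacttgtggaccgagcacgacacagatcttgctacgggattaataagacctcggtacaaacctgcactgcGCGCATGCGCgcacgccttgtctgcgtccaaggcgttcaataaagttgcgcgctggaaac
Uqcr11: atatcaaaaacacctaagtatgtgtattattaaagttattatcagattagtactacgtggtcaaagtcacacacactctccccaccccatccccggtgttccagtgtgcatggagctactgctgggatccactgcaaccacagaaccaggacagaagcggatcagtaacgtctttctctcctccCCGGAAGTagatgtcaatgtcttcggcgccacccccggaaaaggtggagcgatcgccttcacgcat
Atp5g1: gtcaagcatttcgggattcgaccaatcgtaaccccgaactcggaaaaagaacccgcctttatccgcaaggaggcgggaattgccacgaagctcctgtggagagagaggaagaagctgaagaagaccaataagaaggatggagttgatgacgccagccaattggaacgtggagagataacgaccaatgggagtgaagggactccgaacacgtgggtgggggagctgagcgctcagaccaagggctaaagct
Cox6b2: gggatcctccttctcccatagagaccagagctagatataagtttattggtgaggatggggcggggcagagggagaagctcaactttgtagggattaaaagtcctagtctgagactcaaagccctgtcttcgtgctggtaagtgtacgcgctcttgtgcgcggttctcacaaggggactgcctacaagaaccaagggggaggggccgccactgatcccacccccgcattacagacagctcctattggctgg

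All 88 genes matched a RefSeq gene, and 72 had a promoter window of 250 bases before to 50 after a start. Exact matches were searched on both strands for 4 motifs of factors known to act on mitochondrial genes, none of which contains another. GCATGCGC, part of the site of Nrf1, was found in 13.9% of the 72 genes (10 genes) and in 3.05% of all 27025 genes with a window. AAGATGGC, the core of the Yy1 site, was found in 15.3% (11 genes) against 3.19%. CCGGAAGT, bound by ETS factors such as Gabpa, was found in 6.94% (5 genes) against 4.31%, and TCAAGGTCA, bound by Esrra and Esrrb, in 2.78% (2 genes, Atp5g3 and Sdhd) against 0.466%. Of the 22 genes with a window that were called lower on day 4, 4 held GCATGCGC, 5 AAGATGGC, 2 CCGGAAGT and 0 TCAAGGTCA. The capitals in Ndufa11 are GCATGCGC read on both strands at overlapping positions, and those in Uqcr11 are CCGGAAGT. The GCATGCGC of Uqcr11 lies at least partly in the 50 bases after the start, which are not printed. Atp5g1 and Cox6b2 held no match in the bases printed. A match describes the letters of the window and no binding was measured.

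The E14 libraries held 20104644 to 39835808 counted reads and those of the 2 genotypes 19104692 to 31580252. Markers followed the labels: the pluripotency gene Zfp42 fell from 21590.2 and 20872 on day 0 to 371 and 511 on day 4, and the mesendoderm gene Mixl1 rose from 14.3 and 20.2 to 6108 and 6657. Trp53 stood at 8339 and 11784 in the Trp53+/+ libraries and 866 and 802 in the Trp53-/-,p63shp73sh libraries, Trp73 at 219 and 297 against 48 and 52.5, and Trp63 at 9 or below in all 14 libraries. The fibroblast markers Col1a1, Col1a2, Postn and Thy1, of feeder cells, summed to 426 to 1024 on days 0 to 3 and to 964 and 2498 on day 4, and Postn was at 0 in 4 E14 libraries. Their part in the time course was not tested. One library stood apart from its partner before any comparison. On day 0 the immediate early gene Fos stood at 5859.9 and 144 in replicates 1 and 2 and the p53 target Cdkn1a at 9923 and 1272, and most respiratory chain genes were higher in replicate 1 too.

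Values are the deposited ones, read counts divided by 1 factor per library, and a gene's fold change is on the scale of log2(value + 1). A gene passed, or was called, where limma's adjusted p was under 0.05 over all genes tested (15841 for the E14 days, 14840 for the genotypes). Of the 88 genes, 85 passed the filter on low values for the E14 days and 83 for the genotypes. Cox6a2 and Cox8b, muscle isoforms of complex IV, and Ndufs5 were left out of both, and Cox7b2 and Cox8c of the genotype table. Ndufs5, a complex I subunit, was listed at 0 in all 14 libraries. Cox6a2 reached 15.4 and 2.37 in the day 0 libraries and at most 7.39 elsewhere, and Cox8b at most 3.29.

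The 88 genes together took 1.66% and 1.25% of all reads in the 2 day 0 libraries, 1.36% and 1.22% on day 1, 1.26% and 1.23% on day 2, 1.21% and 1.08% on day 3, and 1.13% and 1.06% on day 4. Both day 4 libraries lay below every library of days 0, 1 and 2, and day 0 replicate 1 was the highest of the 10. The share of the complex IV genes was 0.289% and 0.169% on day 0 and 0.156% and 0.143% on day 4, and that of the complex I genes 0.440% and 0.290% on day 0 and 0.283% and 0.267% on day 4. The complex V share was 0.667% and 0.578% on day 0, 0.557% and 0.481% on day 3 and 0.4996% and 0.469% on day 4, so that days 3 and 4 overlapped. The complex II share was 0.0817% in day 0 replicate 1 and between 0.0667% and 0.0727% in the other 9 libraries. In bulk samples, fewer cells of a type and less RNA per cell cannot be told apart.

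**Figure D1:**
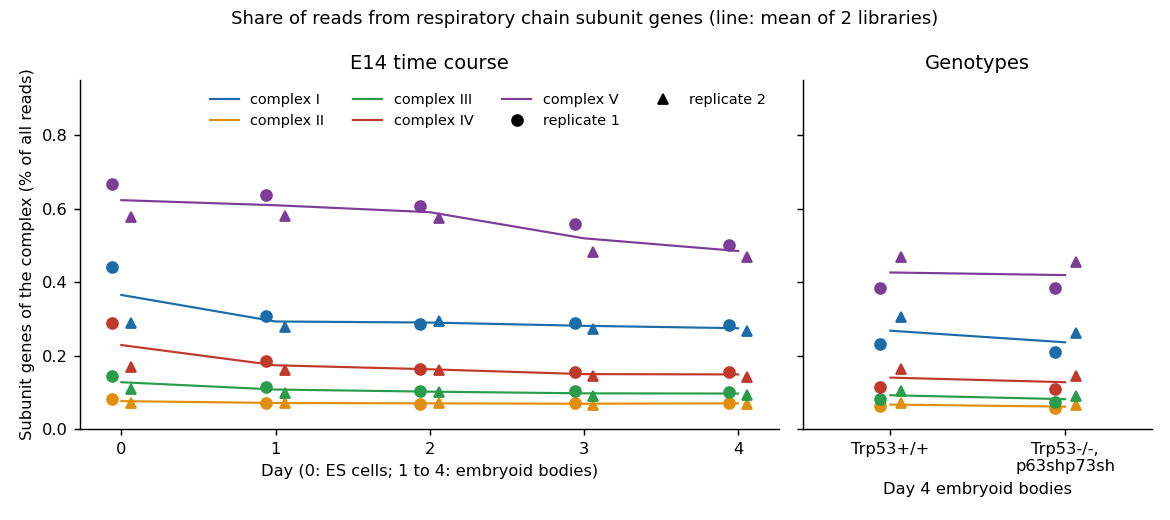
Share of all reads (%, y axis) taken by the subunit genes of each complex, by day in the E14 time course (left) and by genotype in day 4 embryoid bodies (right); circles are replicate 1, triangles replicate 2, and lines join the means of 2 libraries. Day 0 replicate 1 is the highest E14 library for all 5 complexes, and replicate 2 is above replicate 1 in both genotypes.

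The gap between the 2 day 0 libraries was larger for these genes than for genes at large. Replicate 1 was higher than replicate 2 for 80 of the 85 genes, with a median difference of 0.67 on the log2 scale, against 0.013 over all genes tested. The difference passed 1.5-fold upward for 64.7% of the 85 genes and 24.3% of all genes. It was widest in the median of the accessory subunits of complex I (0.81) and of complex IV (0.81), and narrower in complex V (0.56), complex II (0.40) and the mitochondrial ribosome (0.29). The gap was uneven within complexes. Cox6b2 stood at 5.60 times its replicate 2 value, Ndufa4l2 at 4.15 times, Cox4i2 at 4.03 times and Ndufb4 at 3.75 times, while Atp5b, Uqcrc1, Ndufv1, Ndufs1, Sdha and Atp5g1 stood at 1.07, 1.12, 1.17, 0.850, 0.959 and 1.03 times. Cox8c went the other way, at 0.205 times. The time course is therefore given with and without this library.

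**Figure D2:**
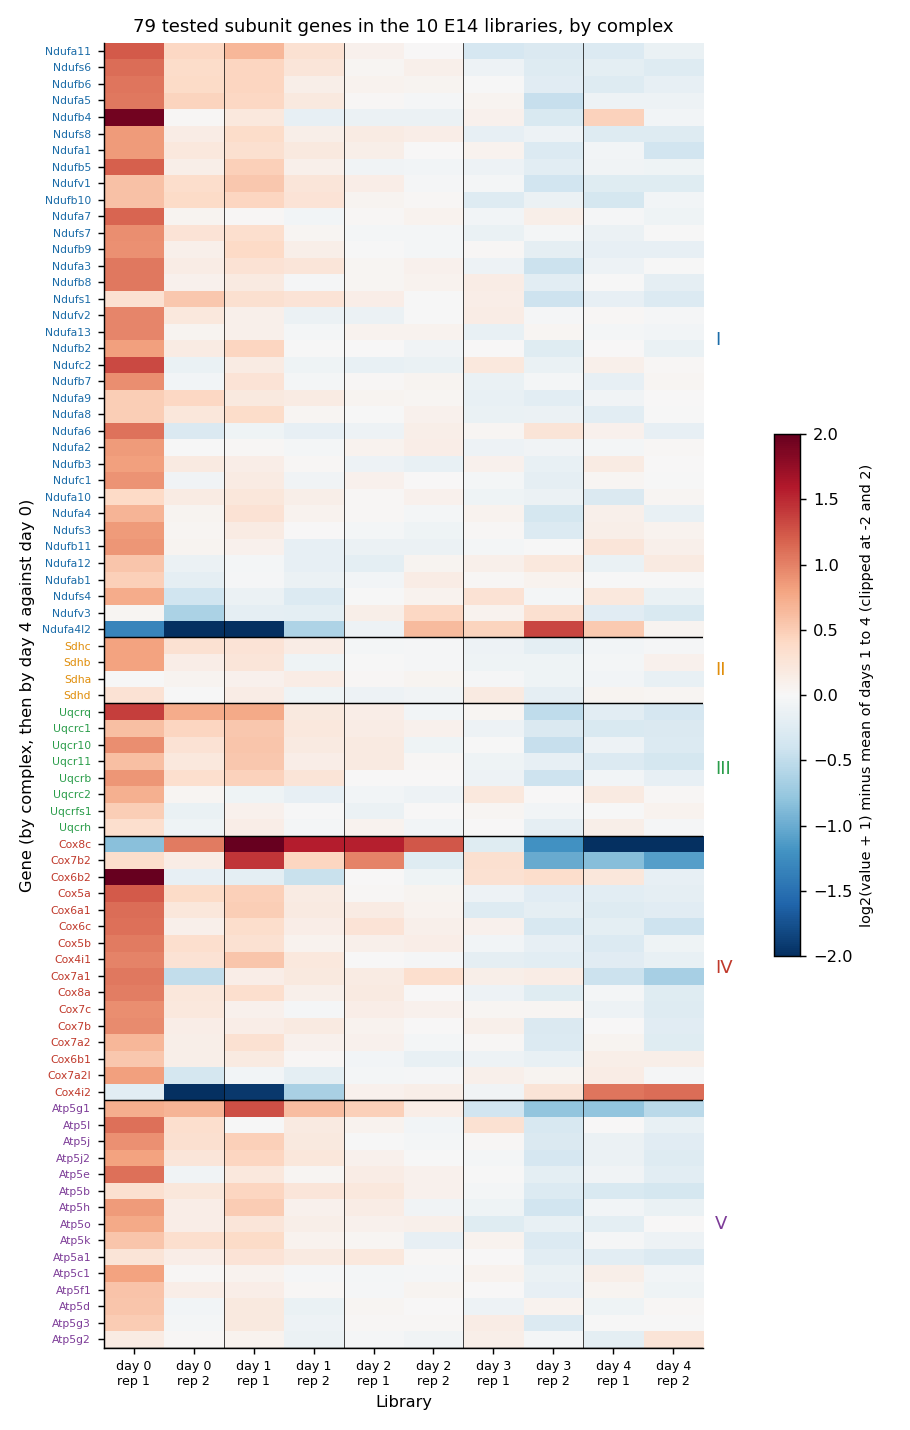
Each row is 1 of 79 of the 80 subunit genes tested in the time course (1 is not drawn), grouped by complex, and each column 1 of the 10 E14 libraries; colour is log2(value + 1) minus the mean of the 8 day 1 to day 4 libraries, clipped at -2 and 2. The first column (day 0 replicate 1) is red for most genes, while Ndufa4l2 and Cox4i2 run from blue to red over the days and Cox8c from red on day 1 to blue on day 4.

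Between day 0 and day 4, 30 of the 85 genes fell (35.3%, where 16.7% of all genes tested were called lower) and 2 rose (where 19.2% of all were called higher). Both that rose are alternative isoforms, Ndufa4l2 and Cox4i2. The fold change was below 0 for 80 of the 85 genes (94.1%, against 49.5% of all genes), with a median of -0.58 against 0.013 over all genes. Without day 0 replicate 1, 17 genes fell, all of them among the 30, where 19.2% of all genes were called lower, and 3 rose (Ndufa4l2, Cox4i2 and Cox7a2l), where 21.6% of all were called higher. The count of 17 of 85 is close to that background, and 60 of 85 fold changes were below 0 (70.6%, against 49.8% of all genes), with a median of -0.22. The median was -0.89 without day 0 replicate 2, and the share called lower was then larger than that of all genes. It was -0.61 without day 4 replicate 1 and -0.57 without day 4 replicate 2. Without either of these day 4 libraries, a smaller share of the 85 genes than of all genes was called lower. Scaling by library totals in place of the deposited factors gave 19 lower and 2 higher, where 12.9% of all genes were called lower. Both day 4 libraries were below both day 0 libraries for 55 of the 85 genes (32.7% of all genes were), and both below both day 1 libraries for 50 (37.7% of all).

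Complex I, the entry point for electrons from NADH, had 11 of 37 tested genes lower (29.7%) and 1 higher (Ndufa4l2). Of all genes tested, 16.7% were called lower and 19.2% higher. The complex had a median fold change of -0.56, or -0.19 when day 0 replicate 1 was left out. In that second fit its share of lower calls was not above that of all genes. Its 7 core subunits coded in the nucleus hold the flavin, the iron-sulphur clusters and the quinone site. With all libraries in the fit, 4 of these fell (57.1%), Ndufv1, Ndufs1, Ndufs7 and Ndufs8, and of the 30 accessory subunits 7 fell (23.3%). The median was -0.63 in the core and -0.51 in the accessory subunits. Without day 0 replicate 1 these medians were -0.34 and -0.11, and the changes of Ndufs7 and Ndufs8 shrank to -0.34 and -0.40. Ndufv1, which binds the flavin that accepts electrons from NADH, stood at 7124 and 6105 on day 0, 6946 and 5629 on day 1, 5247 and 4710.2 on day 2, 4622 and 3674 on day 3 and 4032 and 4037 on day 4. All 4 libraries of days 3 and 4 lay below all 4 of days 0 and 1, and the fold change from day 0 to day 4 was -0.71 (SE 0.18, adjusted p = 0.0126). Ndufs1, the large iron-sulphur subunit, stood at 4863 and 5719 on day 0 and 3522 and 3279.9 on day 4 (-0.63, SE 0.20, adjusted p = 0.0297), and for it day 0 replicate 1 was the lower of the pair.

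The accessory subunits with the smallest p in complex I were Ndufa11, Ndufs6 and Ndufb6. Ndufa11, a membrane arm subunit that links to complex III in supercomplexes, stood at 5184 and 2948 on day 0, 3506 and 2729 on day 1, 2344 and 2231 on day 2, 1749 and 1819 on day 3 and 1833 and 2017 on day 4. Its values were lower in each of the 4 libraries of days 3 and 4 than in any earlier one, and the fold change was -1.02 (SE 0.25, adjusted p = 0.0105), or -0.62 (adjusted p = 0.022) without day 0 replicate 1. Ndufs6, a zinc-binding subunit, went from 3427 and 2017 to 1365 and 1319.8 (-0.97, adjusted p = 0.0105). Ndufb6, a membrane arm subunit, went from 3444 and 2149 to 1369 and 1461 (-0.94, adjusted p = 0.0109). Others in complex I did not pass: Ndufab1, the mitochondrial acyl carrier protein, stood at 672 and 423 on day 0 and 477 and 478 on day 4 (adjusted p = 0.649), with the day 4 pair between the day 0 libraries. Ndufv3 had a fold change of 0.030, the only one in the complex above 0 other than that of Ndufa4l2.

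Ndufa4l2 was the gene with the largest upward fold change of the 85. It is a paralog of Ndufa4 and is known as a hypoxia-inducible gene that restrains respiration. Its values were 493 and 119 on day 0, 255 and 802 on day 1, 1157 and 1918 on day 2, 1677 and 3137 on day 3 and 1780.5 and 1286 on day 4. The day 4 libraries lay above both day 0 libraries, day 3 replicate 2 was the highest of all, and the fold change from day 0 to day 4 was 2.64 (SE 0.67, adjusted p = 0.0135), or 3.66 (adjusted p = 0.00123) without day 0 replicate 1 and 1.62 (adjusted p = 0.0474) without day 0 replicate 2. Against day 1, whose libraries lie far apart, the change was 1.74 and did not pass (adjusted p = 0.0689). Ndufa4 itself, which is expressed in most tissues, stood at 8548 and 5546 on day 0 and 5755 and 4825 on day 4 (-0.39, adjusted p = 0.213), with the ranges of the days overlapping.

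Complex II, succinate dehydrogenase, which also works in the citric acid cycle, had 1 of its 4 genes lower (25%, against 16.7% of all genes). Its median fold change was -0.28, or -0.13 without day 0 replicate 1. Sdhc, one of its membrane anchors, stood at 6629 and 4712 on day 0 and 3684 and 3768 on day 4 (-0.58, SE 0.18, adjusted p = 0.0288), and it was not called without day 0 replicate 1 (-0.34, adjusted p = 0.082). Sdha, the flavin-binding catalytic subunit, stood at 9739 and 10151 on day 0, 10339 and 10856 on day 1, 9966 and 10195 on day 2, 9579 and 9212 on day 3 and 9386 and 8808 on day 4. These 10 values lie between 8808 and 10856, and the fold change was -0.13 (adjusted p = 0.484). Sdhb, the iron-sulphur subunit (-0.44, adjusted p = 0.144), and Sdhd, the other anchor (-0.093, adjusted p = 0.71), did not pass either.

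Complex III, which passes electrons from ubiquinol to cytochrome c, had 5 of 8 genes lower (62.5%, against 16.7% of all genes). Its median fold change was -0.71. Uqcrc1, a core subunit on the matrix side, stood at 12276 and 10946 on day 0, 11705 and 9342 on day 1, 8982 and 8542 on day 2, 7568 and 6606 on day 3 and 6564 and 6649 on day 4. Its mean was lower on each day than on the one before up to day 4, both day 4 libraries lay below all those of days 0 to 2, and the fold change was -0.81 (SE 0.16, adjusted p = 0.0043). Uqcrq, a small subunit next to cytochrome b, stood at 5419 and 3457 on day 0 and 1785 and 1636 on day 4 (-1.34, SE 0.28, adjusted p = 0.00494), and Uqcr11, the smallest subunit, went from 2250.0 and 1717 to 1230.4 and 1167 (-0.71, SE 0.20, adjusted p = 0.021). Uqcr10 and Uqcrb also fell with all libraries in the fit. The rest did not pass: Uqcrfs1, the Rieske iron-sulphur protein (-0.15, adjusted p = 0.576), Uqcrh, the hinge protein (-0.081, adjusted p = 0.749), and Uqcrc2, the other core subunit. Without day 0 replicate 1, Uqcrc1 (-0.73, adjusted p = 0.00703) and Uqcrq (-1.02, adjusted p = 0.0145) were the 2 genes of complex III still called, and its median was -0.46.

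Complex IV, cytochrome c oxidase, had 8 of 16 genes lower (50%, against 16.7% of all genes) and 1 higher, and a median fold change of -0.83. Of the 5 complexes, its day 0 libraries also had the largest median difference. When day 0 replicate 1 was left out, the complex had a median of -0.38 and a share of lower calls still above that of all genes. Cox5a, a structural subunit on the matrix side, stood at 11819 and 6595 on day 0, 7034 and 5704 on day 1, 5167 and 5238 on day 2, 4739.7 and 4308 on day 3 and 4359 and 4483 on day 4, with a fold change of -0.998 (SE 0.24, adjusted p = 0.0108). Each day 3 and day 4 value was below every earlier one. Without day 0 replicate 1 the change was -0.58 (adjusted p = 0.0175). Cox5b, which binds zinc, went from 3636 and 2237 to 1472 and 1668 (-0.86, adjusted p = 0.0151). Cox6a1, Cox6c, Cox7c and Cox8a fell too, and of these Cox6a1 was still called without day 0 replicate 1. Cox6b1 and Cox7a2 did not pass. Cox7a2l, which helps join complexes III and IV into supercomplexes, stood at 5469 and 2428 on day 0 and 3459 and 3060.3 on day 4 and did not pass. It was called higher without day 0 replicate 1 (0.42, adjusted p = 0.0493) and lower without day 0 replicate 2 (-0.75, adjusted p = 0.00311).

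Subunits 4, 6b and 8 are among those of complex IV that have a common and an alternative isoform. Cox4i1, the common form of the regulatory subunit 4, stood at 19289.7 and 11785 on day 0, 14226 and 11136 on day 1, 9693 and 9549 on day 2, 8553 and 8389 on day 3 and 8242 and 8728 on day 4. It was below all day 0 and day 1 values from day 2 on (-0.83, SE 0.22, adjusted p = 0.0166). Cox4i2, known as the lung and low-oxygen form, stood at 67 and 16.6 on day 0, 19.8 and 49.5 on day 1, 83.2 and 84.4 on day 2, 74.4 and 93.2 on day 3 and 166 and 169.6 on day 4. Both day 4 libraries were the highest of the 10, and the change was 2.29 against day 0 (SE 0.62, adjusted p = 0.0172) and 2.38 against day 1 (adjusted p = 0.0149). The change from day 0 was 3.26 without its replicate 1 (adjusted p = 0.000938), and without its replicate 2 it was 1.31 and the call was lost (adjusted p = 0.0519).

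Cox8a, the common form of subunit 8, went from 12241 and 6999 to 5861 and 5057 (-0.77, adjusted p = 0.0317). Cox8c, known from testis, was near the limit of detection throughout, at 2.2 and 10.7 on day 0, 23.3 and 16 on day 1, 15.7 and 12.4 on day 2, 3.81 and 1.46 on day 3 and 0 and 0 on day 4. With 0 reads in both day 4 libraries, it was at least 6.84-fold lower than on day 1, taking 3 reads per library as the floor. Against day 0, where replicate 1 held 2 reads, it was called (adjusted p = 0.0165), and a pseudocount of 5 or leaving out day 0 replicate 2 (adjusted p = 0.0741) ended the call. Cox6b2, another isoform known from testis, read 5647 and 1008 on day 0, 980.4 and 827 on day 1, 1127 and 1061 on day 2, 1384 and 1440.4 on day 3 and 1309 and 1008 on day 4. Only day 0 replicate 1 was high, the other 9 values lay between 827 and 1440.4, and the fold change of -1.05 did not pass (adjusted p = 0.185). Cox6b1, its common partner, stood at 5861 and 4341 on day 0 and 4368 and 4363 on day 4. Cox7a1, the muscle and heart form of subunit 7a, stood at 593 and 202 on day 0 and 212 and 179 on day 4 (-0.82, adjusted p = 0.149). Cox7b2 stayed at 36.2 or below.

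**Figure D3:**
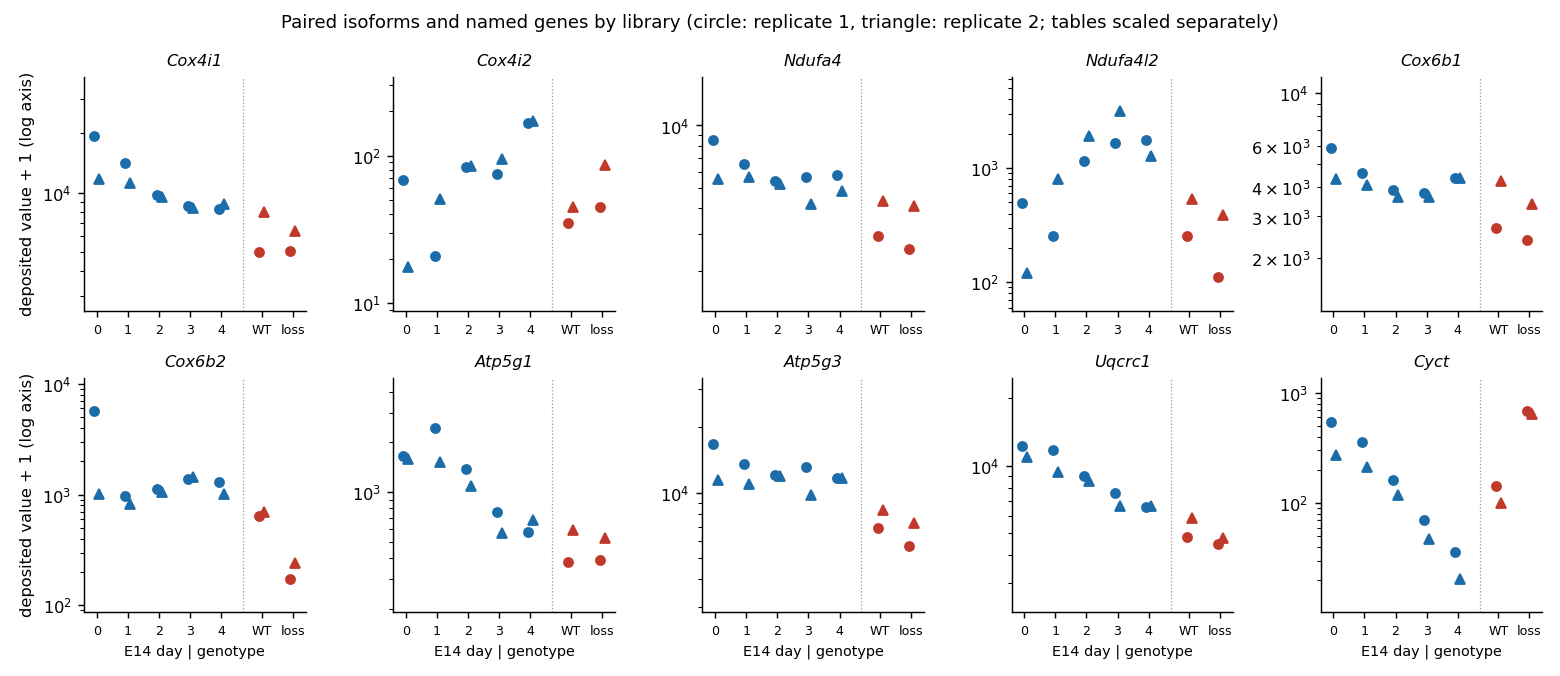
Deposited value plus 1 (log y axis) by library for paired isoforms of complexes I, IV and V, for Uqcrc1 and for the testis cytochrome c gene Cyct; blue is the E14 time course by day, red the day 4 genotypes (WT, Trp53+/+; loss, Trp53-/-,p63shp73sh), circles replicate 1 and triangles replicate 2, and the 2 tables were scaled separately. Cox4i2 and Ndufa4l2 climb while Cox4i1, Atp5g1, Uqcrc1 and Cyct decline, Cox6b2 is low and Cyct high in the loss libraries.

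Complex V, the ATP synthase, had 4 of 15 genes lower (26.7%, against 16.7% of all genes). Its median fold change was -0.53, or -0.23 without day 0 replicate 1, where its share of lower calls was below that of all genes. Atp5g1, 1 of 3 genes that code for the same mature c-ring subunit, had the smallest p of the 85. It stood at 1635 and 1584 on day 0, 2417 and 1520.3 on day 1, 1382 and 1086 on day 2, 761 and 571 on day 3 and 574 and 678 on day 4. The 2 day 0 libraries were alike, the highest value was day 1 replicate 1, and all 4 libraries of days 3 and 4 were below every earlier one (-1.37, SE 0.26, adjusted p = 0.00317). The change was -1.34 without day 0 replicate 1 and -1.62 against day 1 (adjusted p = 0.00139). The other c-ring genes did not pass: Atp5g2 stood at 109 and 98.5 on day 0 and 84.9 and 116 on day 4 (-0.057, adjusted p = 0.902), and Atp5g3 at 16802 and 11422 on day 0 and 11661 and 11652 on day 4 (-0.25, adjusted p = 0.388).

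In the F1 head, where ATP is made, the catalytic beta subunit gene Atp5b stood at 84435 and 79276 on day 0, 90646 and 79790.0 on day 1, 77897 and 71772 on day 2, 65648 and 55782 on day 3 and 54507 and 53134 on day 4. Day 0 and day 1 did not separate, both day 4 libraries were the lowest of the 10, and the change was -0.60 (SE 0.17, adjusted p = 0.0181). Atp5a1, the alpha subunit, read 54013 and 49624 on day 0 and 39195 and 37426 on day 4 (-0.43, adjusted p = 0.0577), and it passed against day 1 (-0.46, adjusted p = 0.0467). In the peripheral stalk, Atp5j went from 6899 and 4548 to 3376 and 3117 (-0.79, adjusted p = 0.018), and in the membrane part Atp5j2 fell as well. Neither was called without day 0 replicate 1. Of the 5 genes that are not subunits, Cox4nb fell and 4 did not pass.

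**Figure D4:**
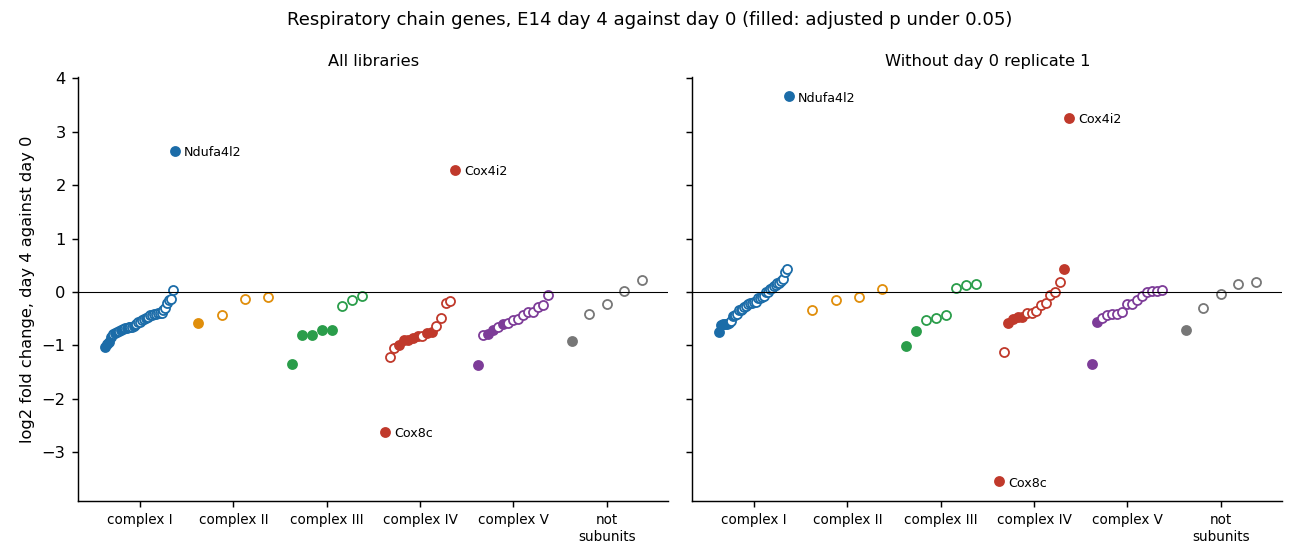
log2 fold change from day 0 to day 4 (y axis) of each tested gene, by complex and sorted within it, with all libraries (left) and without day 0 replicate 1 (right); filled points passed at an adjusted p under 0.05. Most genes lie below 0 on the left (80 of 85) and fewer on the right (60 of 85), while Ndufa4l2, Cox4i2 and Cox8c lie farthest out in both.

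Between consecutive days no respiratory chain gene was called. In limma 0 of the 85 genes passed in each step, where 3.3% of all genes were called from day 0 to day 1, 0.593% from day 1 to 2, 0.133% from day 2 to 3 and 2.93% from day 3 to 4. At an unadjusted limma p under 0.05 there were 6, 3, 3 and 1 of the 85 genes in these steps. Of all 15841 genes tested, 3189, 3053, 1640 and 2363 were under this cut, a larger share in each step. edgeR called 0 in each step, and DESeq2 called 2 in the first step and 0 in the others. With single libraries left out, the limma count of the first step changed most without day 0 replicate 2. The median fold changes were -0.27, -0.14, -0.12 and -0.0057. A change on any day was called for 19 of the 85 genes, a share below the 38.9% of all genes. That count rose without day 0 replicate 2 and fell without day 1 replicate 1 or any single library of days 2 to 4. The mean was highest on day 0 for 72 of the 85 genes (84.7%, against 26.8% of all genes), and over days 1 to 4 alone it was highest on day 1 for 59 (69.4%, against 36.6%).

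With day 1 in place of day 0, a comparison chosen after the data were seen, 10 genes fell (16.8% of all genes were called lower) and 1 rose (18.4% of all were called higher), and the median was -0.27. Of the 10, 8 had also fallen from day 0: Atp5b, Atp5g1, Cox4nb, Cox8c, Ndufb10, Ndufv1, Uqcr11 and Uqcrc1. The other 2 were Atp5a1 and Cox7b2, and Cox4i2 was the one that rose. The share of 10 in 85 is below the background of calls.

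Genes around the chain were read from lists of their own, beside the shares of all genes called lower and higher, 16.7% and 19.2% with all libraries and 19.2% and 21.6% without day 0 replicate 1. Of 29 tested assembly factors of the complexes, which include Sdhaf1 and Sdhaf2 of the 88, 6 fell and 0 rose between day 0 and day 4, with a median of -0.35, and 7 fell and 1 rose without day 0 replicate 1, lower shares of 20.7% and 24.1%. Sco1, which delivers copper to complex IV, went from 2035 and 1349.9 to 734 and 793 (-1.12, adjusted p = 0.00517), Cox17, the copper chaperone before it, from 3508 and 1928 to 1203 and 1094 (-1.18, adjusted p = 0.00713), and Ecsit, a complex I assembly factor, from 1040.5 and 1568 to 652 and 709.9 (-0.91, adjusted p = 0.0178). Sco2 was listed at 0 in all 14 libraries. Of 76 genes of the mitochondrial ribosome, which makes the subunits coded in mitochondrial DNA, 37 fell and 0 rose (median -0.57), and 28 fell and 2 rose without day 0 replicate 1, lower shares of 48.7% and 36.8%. Mrpl15 (-1.26), Mrpl35 (-1.05) and Mrps31 (-1.15) had its smallest p, with adjusted p = 0.000589, 0.00181 and 0.00194.

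Among 15 genes for the mobile carriers and ubiquinone synthesis, 5 fell and 1 rose (median -0.32), and 5 fell and 0 rose without day 0 replicate 1, a lower share of 33.3% in both. Cyct, the cytochrome c gene known from testis, stood at 545 and 269.5 on day 0, 358 and 211 on day 1, 162 and 118 on day 2, 69.6 and 46.6 on day 3 and 34.6 and 19.6 on day 4. Days 0 and 1 overlapped, and from day 2 on both libraries of each day lay below both of the day before, with a change of -3.83 from day 0 to day 4 (SE 0.47, adjusted p = 0.000306). Cycs, the somatic cytochrome c gene, stood at 221 and 126 on day 0 and 114 and 103 on day 4 and did not pass (-0.62, adjusted p = 0.203). Coq3 (-1.06, adjusted p = 0.00583) and Pdss1 (-1.20, adjusted p = 0.00899), enzymes of ubiquinone synthesis, fell, and Coq10a rose (0.87, adjusted p = 0.034). Of 26 genes of the citric acid cycle and pyruvate entry, 7 fell and 1 rose (median -0.17), and without day 0 replicate 1 there were 5 and 2, lower shares of 26.9% and 19.2%, the second equal to the share of all genes. Pdhb (-1.25, adjusted p = 0.00191) and Pdhx (-0.73, adjusted p = 0.0217), of the pyruvate dehydrogenase complex, and the citrate synthase gene Cs (-0.59, adjusted p = 0.0152) had the smallest p among those that fell. Pdk2, a kinase that inhibits pyruvate dehydrogenase, rose (1.18, adjusted p = 0.0151).

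Of 24 tested regulators of mitochondrial biogenesis, 6 fell and 2 rose (median -0.26), and 9 fell and 2 rose without day 0 replicate 1, lower shares of 25% and 37.5%. Esrrb, an orphan nuclear receptor of the naive pluripotency network, stood at 27007 and 18763 on day 0, 7548 and 4527 on day 1, 1804 and 1600.0 on day 2, 966 and 738 on day 3 and 322 and 521 on day 4, with both libraries of each day below both of the day before (-5.78, SE 0.31, adjusted p = 5.8e-06). Its relative Esrrg, near the limit of detection on day 0, rose from 2.2 and 2.37 to 14.8 and 20.7 (2.50, adjusted p = 0.00343). Polg, the mitochondrial DNA polymerase, rose as well (0.85, adjusted p = 0.00678). Clpp, a matrix protease subunit (-1.04), and Pprc1, a coactivator of respiratory genes (-0.65), fell, with adjusted p = 0.00415 and 0.0147. With all libraries in the fit, Esrra (adjusted p = 0.0751), Nrf1 (0.213) and Tfam (0.633) did not pass. For Nrf1 and Esrra this result depended on which day 0 libraries were in the fit. Ppargc1a stayed at 5.91 or below in all libraries and was not tested.

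In day 4 EBs, 1 of the 83 respiratory chain genes tested fell in the p53 family loss against Trp53+/+, Cox6b2, and 0 rose (0.674% of all genes were called lower and 0.566% higher). At an unadjusted limma p under 0.05 there were 2 genes, Cox6b2 and Ndufa9, both lower. Of all 14840 genes tested, 2065 were under this cut, a larger share. Higher calls were also 0 with edgeR and with DESeq2. The fold change was below 0 for 72 of the 83 genes (86.7%, against 49.0% of all genes), with a median of -0.18. The sign of this median depended on single libraries: it was 0.062 without Trp53+/+ replicate 2 and 0.014 without Trp53-/-,p63shp73sh replicate 1. It was -0.42 without Trp53+/+ replicate 1 and -0.40 without Trp53-/-,p63shp73sh replicate 2. In both genotypes replicate 1 was below replicate 2 for 82 of the 83 genes, by a median of 0.50 on the log2 scale in Trp53+/+ and 0.38 in the loss. The genes as a group took 0.896% and 1.14% of reads in the Trp53+/+ libraries and 0.860% and 1.04% in the loss libraries, so that the groups overlap.

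Cox6b2 stood at 646 and 699 in Trp53+/+ and 174 and 241 in Trp53-/-,p63shp73sh. The groups do not overlap, and the change was -1.71 (SE 0.23, adjusted p = 0.0328). It was the lowest fold change of the 83 and the call was lost without Trp53-/-,p63shp73sh replicate 1, at -1.48. Cox6b1 stood at 2691 and 4231 in Trp53+/+ and 2378 and 3397 in the loss and did not pass (adjusted p = 0.784).

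Both loss libraries were below both Trp53+/+ libraries for 8 of the 83 genes, among them Cox6b2, Ndufa9, Ndufv1 and Uqcrc1, where 20.2% of all genes tested were, and above both for 1 (Atp5s), where 23% were. These shares are below the background. Ndufa9, an accessory subunit of the peripheral arm of complex I that lies near the quinone site, stood at 3062 and 3839 against 1927 and 2176 (-0.74, SE 0.18) and did not pass (adjusted p = 0.127). Ndufv1 (-0.15) and Uqcrc1 (-0.20), both lower by day 4 in the E14 cells, had adjusted p = 0.763 and 0.69 here. The isoforms that rose in the time course overlapped between genotypes: Cox4i2 stood at 33.9 and 43.8 against 43.6 and 85.2 (0.65, adjusted p = 0.599) and Ndufa4l2 at 255 and 539 against 111 and 391 (-0.83, adjusted p = 0.661).

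**Figure D5:**
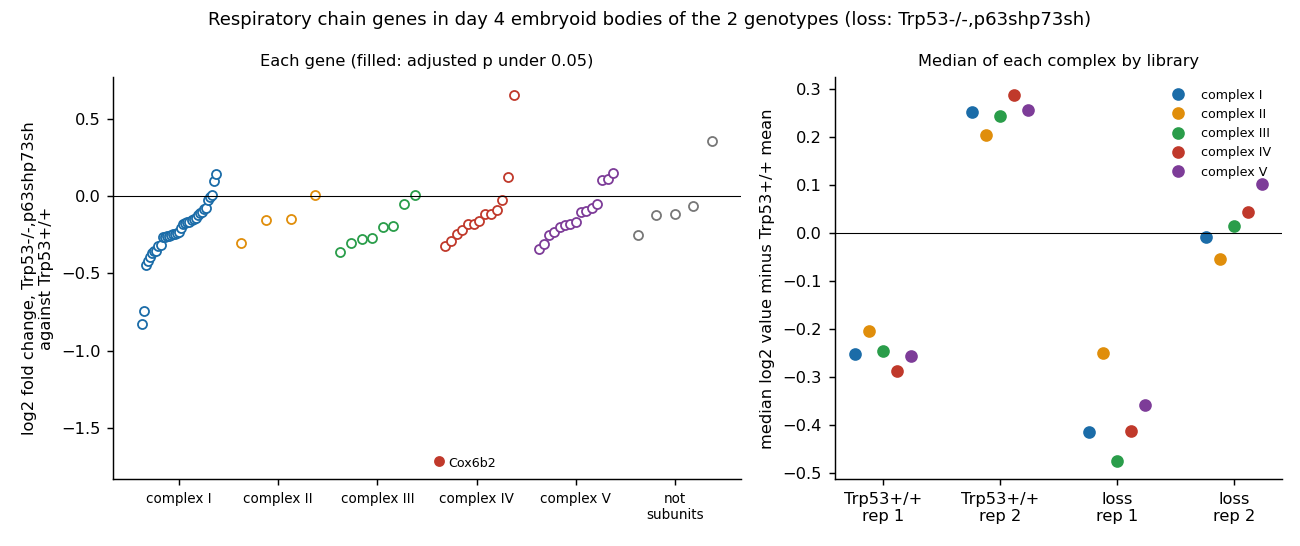
Left, log2 fold change of each tested gene in Trp53-/-,p63shp73sh against Trp53+/+ day 4 embryoid bodies, by complex, with filled points for an adjusted p under 0.05; right, the median of each complex in each library, as log2(value + 1) minus the Trp53+/+ mean. Cox6b2 is the one filled point, and replicate 2 lies above replicate 1 in both genotypes for all 5 complexes.

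By complex the medians were -0.23 in I, -0.15 in II, -0.23 in III, -0.17 in IV and -0.17 in V, with 0 genes called outside complex IV. Around the chain, limma called 0 assembly factors, 0 genes of the citric acid cycle, 0 regulators and 0 mitochondrial ribosome genes. At an unadjusted limma p under 0.05 there were 2 of 29, 1 of 26, 0 of 24 and 5 of 76. These are smaller shares than the 2065 of all 14840 genes under this cut. Cyct was the one gene called on these lists. It rose from 142 and 99.5 in Trp53+/+ to 680.0 and 644 in the loss (2.46, SE 0.25, adjusted p = 0.0155), without overlap, while Cycs stood at 55.6 and 65 against 55.4 and 42.1 (adjusted p = 0.776). The mesendoderm genes moved in the same libraries: Eomes stood at 12022 and 16743 in Trp53+/+ and 3112 and 3469 in the loss, and Mixl1 at 4174 and 5286 against 835 and 837. The 4 fibroblast markers Col1a1, Col1a2, Postn and Thy1 summed to 956 and 921 in Trp53+/+ and 2351 and 2008 in the loss. Of these only Col1a2 was called, at 261 and 154 against 1258 and 867 (2.38, adjusted p = 0.0304). Col1a1 and Thy1 overlapped between genotypes, and Postn, at 0 in Trp53+/+ replicate 2, did not pass. The part of these differences in the Cox6b2 and Cyct results was not tested.

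Many of these genes have near-identical copies or pseudogenes elsewhere in the genome, and how reads shared with them were counted is not given in the sources used here, so single values of short subunit genes are uncertain to that extent. The libraries were made with a kit that does not mark strand, so reads of a gene and of an overlapping antisense gene cannot be told apart.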

How the data were processed

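RNA-seq values of 10 time course and 4 genotype libraries were used, and the series' 16 ChIP-seq and input samples were not analysed here. Per the labels' protocols, libraries were made with the TruSeq RNA kit and sequenced with paired ends. The submitters' processing notes name, without role or order, the build mm9 and the tools DESeq2, HTSeq 0.5.4, SAMtools 0.1.19, Bowtie2 and FastQC 0.11.3. The authors deposited 2 tables of a signal per gene, 1 for each set of libraries and scaled separately. In each library 100% of values were whole multiples of 1 step within 1e-06, so whole reads were recovered. Levels are therefore not set across tables except as shares of reads.

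The test was limma 3.58.1 (R 4.3.3, with a trend in the empirical Bayes step) on log2 of the signal plus 1, for genes kept by filterByExpr of edgeR 4.0.16, with Benjamini-Hochberg adjusted p under 0.05 over all genes. Each table was fitted whole, with 5 residual and 4.98 prior degrees of freedom in the time course and 2 and 4.33 in the genotype table. The design named this test for scaled values. Alternatives were edgeR and DESeq2 1.42.0 on recovered reads, pseudocounts of 0.5 and 5, no filter, other scalings, a replicate block and leaving out each library. The fit was tested on simulated data. Genes named were a fixed set of catalytic subunits, isoforms and regulators, and up to 3 called genes per complex, list and direction with the smallest p. Genes outside this rule are named where a count of few genes needed it, chosen after their values were seen, and 1 gene is counted but not reported by name. The genes and lists were chosen with earlier results of these data known. Motifs were searched in RefSeq promoter windows (GRCm38.p6). Counts at 0 allow up to 3 reads per library, and this floor covers counting error only.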

Additional observations from a re-analysis of the deposited data

How the results depend on the processing

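The count of genes lower on day 4 than on day 0 kept within 1.5 times of 30 under edgeR, DESeq2, both pseudocounts, no filter, TMM scaling and the replicate block (29 to 44). Scaling by library totals gave 19 and day 1 in place of day 0 gave 10, and leaving out single libraries gave 3 to 70. Library-total scaling moved the median of all genes from 0.013 to 0.17 and the higher share of all calls from 53.4% to 64.3%, while the median of the respiratory chain genes stayed below 0. Genes higher on day 4 numbered 1 against day 1, where 18.4% of all genes were called higher. Leaving out single libraries changed the higher count too. For day 1 against day 0, DESeq2 called 2 genes and leaving out libraries 0 to 49. A change on any day was called for 36 genes by DESeq2, 8 with library-total scaling and 4 to 68 without single libraries. The median fold change from day 0 to day 4 was -0.27 against day 1 and -0.89 to -0.22 without single libraries. In the genotypes, genes lower numbered 2 by DESeq2, where 2.52% of all genes were called lower. They numbered 14 of 83 with the replicate block, where 9.6% of all were. Without single libraries this count changed, and the median ranged from -0.42 to 0.062 (0.014 without Trp53-/-,p63shp73sh replicate 1). Over all genes, 84 higher and 100 lower calls between genotypes became 283 and 374 with DESeq2 and 1548 and 1425 with the replicate block, of 14840 tested. The change of Cox6b2 was -1.48 and not called without Trp53-/-,p63shp73sh replicate 1, and that of Cox8c from day 0 to day 4 was not called with a pseudocount of 5. The replicate numbers were not shown to pair libraries: deviations of same-numbered libraries correlated at -0.19 to 0.35 in the time course, over 0.1 in 3 of 10 pairs of groups, and at 0.57 in the 1 pair of genotypes. The block gave 38 lower genes from day 0 to day 4.

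Several genes that did not pass changed sign between day 0 and day 4. With library-total scaling Sdha was 0.026, Sdhd 0.062, Uqcrfs1 0.0018, Uqcrh 0.074 and Atp5g2 0.096. Against day 1, Ndufab1 was 0.063, Sdhd 0.014, Cox6b2 0.35 and Atp5g2 0.060. Without single libraries the ranges were -0.49 to 0.18 for Ndufab1, -0.25 to 0.060 for Sdhd, -0.46 to 0.16 for Uqcrfs1, -0.30 to 0.13 for Uqcrh, -2.30 to 0.19 for Cox6b2, -0.28 to 0.17 for Atp5g2 and -0.53 to 0.029 for Atp5g3. In the genotypes that of Ndufa4l2 was -1.73 to 0.079. Where a library is left out, its partner is assumed to vary like the other groups. The causes were not tested.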
